A study of Mus musculus with 9 samples.

Results

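The genes described here are an inflammatory set that macrophages switch on through the transcription factor NF-kB. The set was a list of 41 mouse genes, drawn up by function, that holds cytokines, chemokines, NF-kB subunits, feedback inhibitors of the pathway, survival and signalling genes, and surface and acute-phase genes. Of the 41, 39 were matched by symbol to a probe set, among 19505 genes with a symbol on the array. Il12b and Nfkb1 were not matched and are not analysed here. Each of the 39 had 1 probe set, and no filter on dim probe sets was applied.

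Expression was measured in macrophages grown from the bone marrow of wild-type C57BL/6 mice for 7 days with macrophage colony-stimulating factor (M-CSF) and 10% serum. All 3 groups were then exposed for 24 h to 20 ng/ml of interleukin 4 (IL-4), which drives macrophages toward the state often called M2, and no group without IL-4 is among the arrays. One group received vehicle. Another was given LCN2 (lipocalin 2, a secreted protein that binds bacterial siderophores) on day 7, at a dose the labels leave out, and the remaining group was given 150 ng/ml of recombinant mouse LCN2 from day 0. Each group had 3 arrays, titled with the numbers 1, 2 and 3. The labels give M-CSF as 10 ng/ml in one place and 20 ng/ml in another, and do not say what the title number stands for. Nothing in them tells whether a group's arrays hold RNA of different mice or dishes, so the p-values reflect variation among these 9 samples alone, part or all of which may be technical.

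NF-kB is a family of paired transcription factors held in the cytoplasm by inhibitors of the IkB family. Signals from Toll-like receptors and from the receptors of tumour necrosis factor (TNF) and IL-1 lead to destruction of the inhibitor, and the freed factor then switches on cytokines, chemokines and its own inhibitors, which end the response. IL-4 activated macrophages are known for low output of inflammatory cytokines, and an inflammatory signal can still raise part of the set in them.

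The bases just upstream of 5 members are shown because they carry the site that NF-kB binds and because their genes behaved differently on these arrays: Cxcl2, Cxcl3 and Nfkbia differed between arrays of different title number, Cxcl1 did not pass that test, and Tnip3 had the smallest p between treatment groups. Each is the 250 bases before the start in RefSeq (build GRCm38.p6), read 5′ to 3′ on the strand of the gene, with capitals for matches to the classical NF-kB consensus on either strand.
Cxcl1, chr5:90890995-90891244, plus strand: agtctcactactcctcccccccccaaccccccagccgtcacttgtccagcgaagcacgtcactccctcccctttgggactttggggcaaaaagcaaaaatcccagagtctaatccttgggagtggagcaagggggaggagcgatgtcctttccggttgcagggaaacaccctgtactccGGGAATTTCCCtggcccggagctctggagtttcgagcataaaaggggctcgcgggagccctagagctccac
Cxcl2, chr5:90903649-90903898, plus strand: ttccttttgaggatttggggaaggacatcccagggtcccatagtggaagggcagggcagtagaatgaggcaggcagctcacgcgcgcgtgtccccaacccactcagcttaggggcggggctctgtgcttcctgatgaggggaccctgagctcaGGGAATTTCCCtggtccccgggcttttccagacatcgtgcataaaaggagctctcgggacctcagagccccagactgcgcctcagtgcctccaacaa
Cxcl3, chr5:90785851-90786100, plus strand: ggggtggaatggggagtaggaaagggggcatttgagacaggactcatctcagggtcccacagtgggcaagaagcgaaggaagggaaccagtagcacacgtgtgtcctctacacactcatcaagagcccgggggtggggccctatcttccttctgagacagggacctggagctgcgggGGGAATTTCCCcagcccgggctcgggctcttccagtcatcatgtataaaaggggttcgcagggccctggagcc
Nfkbia, chr12:55492648-55492897, minus strand: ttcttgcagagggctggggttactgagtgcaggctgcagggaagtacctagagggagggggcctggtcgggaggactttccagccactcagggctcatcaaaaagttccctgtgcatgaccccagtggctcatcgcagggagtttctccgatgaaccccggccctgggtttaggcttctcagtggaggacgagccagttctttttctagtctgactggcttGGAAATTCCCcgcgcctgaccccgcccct
Tnip3, chr6:65590148-65590397, plus strand: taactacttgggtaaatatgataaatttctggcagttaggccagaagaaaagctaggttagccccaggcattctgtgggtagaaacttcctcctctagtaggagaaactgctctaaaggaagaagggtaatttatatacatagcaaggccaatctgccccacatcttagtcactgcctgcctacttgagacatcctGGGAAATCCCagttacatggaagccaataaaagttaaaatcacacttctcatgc

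Cxcl1, Cxcl2 and Cxcl3 are neighbours on chromosome 5 and encode chemokines that attract neutrophils. Their windows share the stretch gggaatttccc, of 11 bases, which holds 2 overlapping matches on opposite strands and was counted as 1 site. Its last base lies at position -61, -87 and -63 relative to the start, in that order. No other stretch common to the 3 windows was longer, and lined up without gaps on this site the windows were identical at 29.6% to 34.4% of bases. Of the 39 measured members, 30 had a window in the table, and 13 of these (43.3%) held the consensus, against 4.46% of all 27025 genes with a window. Per window the shares were 15 of 38 (39.5%) and 3.90% of all 32851 windows. A match describes letters only, and the members were chosen as NF-kB response genes.

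Between the treatment groups limma, with the group alone in the fit, passed 0 of the 39 members and 0% of all genes in any comparison. The spread between title numbers is part of the standard errors of that fit. Between the arrays numbered 1 and those numbered 2 and 3, tested with both group and number in the fit, 25 members passed (13.9% of all genes). Of these 22 were higher on the arrays numbered 1 (5.1% of all genes) and 3, Il10, Il18 and Cd40, were lower (8.78%). Tnf, Cd14, Tnfaip2, Cxcl2, Cxcl16 and Il1rn were among the 22, by 0.99 to 1.95 on the log2 scale. All p-values for the title number, here and below, take the arrays of a number as replicates. If a number stands for a single mouse or dish, they do not measure the variation between such units. The labels do not set number 1 apart, and the split was chosen with earlier results of these data known. Its p-values are therefore not those of a comparison fixed beforehand.

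The 9 arrays had medians between 5.60 and 5.69 on the log2 scale of the deposited values. The median of all probe-set means was 5.66, and a gene whose mean lay below it is called dim here. By that rule 26 members were not dim and 13 were. The 13 were Il1b, Il1a, Il6, Il10, Il18, Il23a, Il27, Cxcl1, Cxcl2, Cxcl10, Nfkbiz, Traf1 and Saa3. All 5 measured macrophage markers (Adgre1, Csf1r, Itgam, Mertk, Fcgr1) and all 7 genes of IL-4 activation lay above it, with list means per array of 10.17 to 10.36 and 10.21 to 10.55. Of the lists for other cells, 8 of 9 neutrophil genes, 2 of 5 stromal genes (Col1a1, Pecam1), 1 of 7 dendritic cell genes (Ccr7), 1 of 6 T and NK cell genes (Cd4) and 1 of 4 mast cell and basophil genes (Cpa3) lay above it, and none of the 3 B cell or 2 erythroid genes did.

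**Figure D1:**
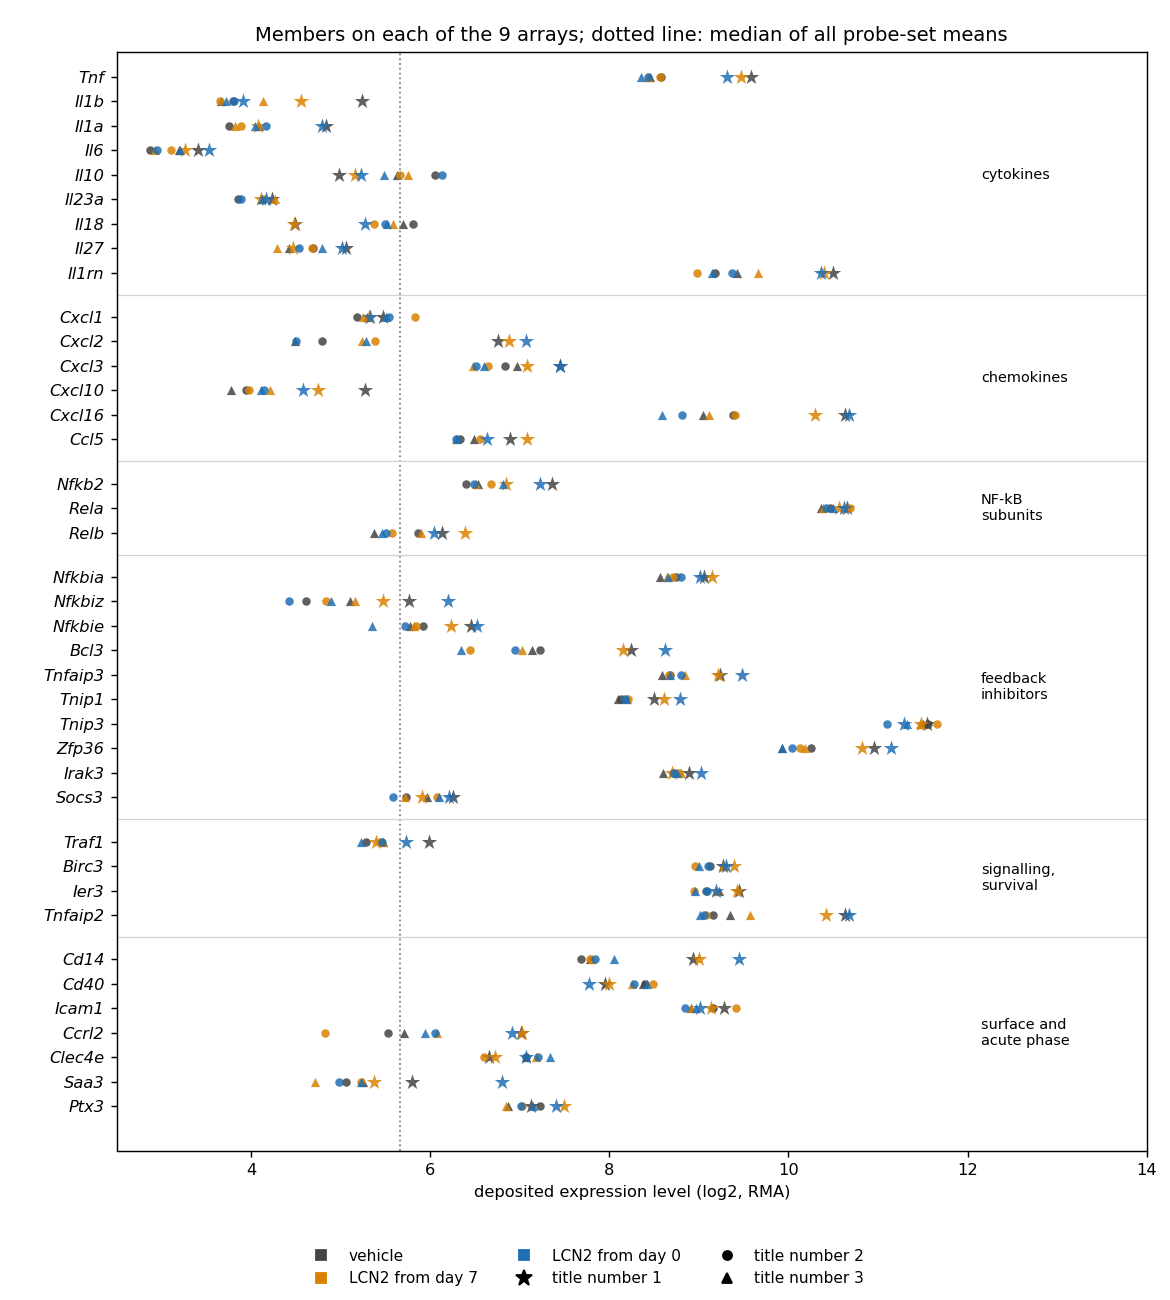
Level of each of the 39 members (log2 scale, horizontal axis) on each of the 9 arrays, grouped by role; colours are the treatment groups, symbols the title numbers, and the dotted line is the median of all probe-set means, 5.66. The stars, which are the arrays numbered 1, lie apart from the other symbols for Tnf, Il1rn, Cxcl2, Cxcl16, Tnfaip2 and Cd14, while the colours intermingle.

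Tnf, which encodes the cytokine TNF, was at 9.58, 8.58 and 8.46 with vehicle on the arrays numbered 1, 2 and 3. With LCN2 from day 7 it was at 9.47, 8.57 and 8.43, and with LCN2 from day 0 at 9.31, 8.43 and 8.36. In every group the array numbered 1 was the high one, and the 3 groups overlapped fully. The difference to vehicle was -0.05 ± 0.37 (SE, n = 3 per group) for LCN2 from day 7, with a 95% interval from -0.88 to 0.78, and -0.17 ± 0.37 from day 0. Within numbers 1, 2 and 3 it was below 0 each time, at -0.11, -0.009 and -0.029 for LCN2 from day 7 and -0.27, -0.15 and -0.10 from day 0. Between number 1 and numbers 2 and 3 Tnf differed by 0.99 ± 0.088 (limma, adjusted p = 0.000235). Il1rn, which encodes the antagonist of the IL-1 receptor, followed the same order, at 10.50, 9.18 and 9.43 with vehicle, 10.39, 8.98 and 9.66 with LCN2 from day 7 and 10.36, 9.37 and 9.14 from day 0. It was higher on the arrays numbered 1 by 1.13 ± 0.14 (limma, adjusted p = 0.00103).

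Il1b, Il1a, Il6, Il23a and Il27 were dim. Il1b, a cytokine released after cleavage by the inflammasome, was at 5.24, 3.79 and 3.66 with vehicle, 4.56, 3.65 and 4.13 with LCN2 from day 7, and 3.91, 3.81 and 3.72 from day 0. Its spread was widest with vehicle, where the array numbered 1 stood alone. It was higher on the arrays numbered 1 by 0.78 ± 0.22 (limma, adjusted p = 0.0468), with values of 1.51 within vehicle, 0.67 within LCN2 from day 7 and 0.14 within LCN2 from day 0. Il1a was higher there too, by 0.61 ± 0.14 (limma, adjusted p = 0.0199). Il6 stayed between 2.87 and 3.53 on all arrays, with a difference between the numbers of 0.36 ± 0.11 that did not pass (limma, adjusted p = 0.0641). Il23a and Il27, which encode subunits of IL-23 and IL-27, did not pass either, at 0.11 and 0.28.

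Il10 and Il18, which were dim as well, went the other way. Il10, an anti-inflammatory cytokine that NF-kB signals also induce, was at 4.98, 5.16 and 5.22 on the 3 arrays numbered 1 and between 5.48 and 6.13 on the other 6, and the ranges did not overlap. It was lower on the arrays numbered 1 by -0.67 ± 0.13 (limma, adjusted p = 0.0102). Il18, an IL-1 family cytokine that macrophages hold as a precursor, was lower there by -0.83 ± 0.17 (limma, adjusted p = 0.0127), with -1.26 within vehicle, -0.99 within LCN2 from day 7 and -0.23 within LCN2 from day 0. Of the 9 measured cytokines, 4 were thus higher (5.1% of all genes) and 2 lower (8.78%) on the arrays numbered 1.

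Of the chemokines, Cxcl2 was at 6.75, 4.79 and 4.48 with vehicle, 6.88, 5.38 and 5.24 with LCN2 from day 7, and 7.07, 4.50 and 5.29 from day 0. Its 3 arrays numbered 1 all lay above every other array, and the difference of 1.95 ± 0.18 (limma, adjusted p = 0.000308) was the widest among the members. Cxcl1, with the same site upstream, stayed between 5.18 and 5.83, with a difference of -0.06 ± 0.14 between the numbers and a 95% interval from -0.38 to 0.25, apart from that of Cxcl2 (1.54 to 2.37). Both genes are dim on average, and probe sets differ in how they answer to their RNA. Cxcl3 was higher on the arrays numbered 1 by 0.66 ± 0.11 (limma, adjusted p = 0.00449).

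Cxcl16, a membrane-bound chemokine and scavenger receptor, was at 10.63, 9.38 and 9.04 with vehicle, 10.29, 9.40 and 9.11 with LCN2 from day 7, and 10.68, 8.81 and 8.59 from day 0. The arrays numbered 1 were again apart, by 1.48 ± 0.16 (limma, adjusted p = 0.000515). Cxcl10, a chemokine that interferon induces as well, was higher by 0.84 ± 0.17, and Ccl5, which attracts T cells and monocytes, by 0.50 ± 0.11 (limma, adjusted p = 0.0107 and 0.0152). In all, 5 of 6 chemokines were higher on the arrays numbered 1 (5.1% of all genes).

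Of the NF-kB subunits, Nfkb2 and Relb, which form the non-canonical pair and are themselves NF-kB targets, were both higher on the arrays numbered 1, by 0.57 ± 0.13 each (limma, adjusted p = 0.0217 and 0.0174). Rela, the subunit of the canonical pair that carries its activating domain, lay between 10.36 and 10.69 on all arrays, with a difference of 0.14 ± 0.10 that did not pass.

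Of the 10 genes listed as feedback inhibitors, 7 were higher on the arrays numbered 1 (5.1% of all genes). All but Nfkbiz lay above the median of probe-set means. With dim genes left out, 33.2% of all genes passed, higher or lower. Bcl3 and Nfkbiz, which are in this list, are not only inhibitors. Bcl3, a nuclear relative of IkB, was higher by 1.49 ± 0.20 (limma, adjusted p = 0.00178), Nfkbiz, another nuclear relative, by 0.97 ± 0.17 (0.00535), and Zfp36, whose product destabilises cytokine mRNAs, by 0.90 ± 0.12 (0.00136). Nfkbie and Nfkbia, which encode cytoplasmic IkB proteins, differed by 0.67 and 0.39, and Tnfaip3 (the ubiquitin-editing enzyme A20) and Tnip1 (a partner of A20) by 0.60 and 0.47. Nfkbia was at 9.05, 9.15 and 9.02 on the arrays numbered 1 and between 8.57 and 8.80 on the others, without overlap. Irak3, a brake on Toll-like receptor signalling, Socs3, a brake on cytokine receptors, and Tnip3, another partner of A20, did not pass, at 0.14, 0.26 and 0.002.

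Among the signalling and survival genes 1 of 4 passed (13.9% of all genes). Tnfaip2, a gene that TNF induces, was at 10.63, 10.42 and 10.68 on the arrays numbered 1 and between 9.02 and 9.57 on the other 6. The difference was 1.37 ± 0.13 (limma, adjusted p = 0.000302). Traf1 (an adaptor at TNF family receptors), Birc3 (a ubiquitin ligase at them) and Ier3 (an early response gene) were at 0.31, 0.20 and 0.28. They did not pass.

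Of the 7 surface and acute-phase genes, 3 were higher (5.1% of all genes) and 1 lower (8.78%) on the arrays numbered 1. Cd14, the co-receptor that hands bacterial lipopolysaccharide to Toll-like receptor 4, was at 8.93, 7.69 and 7.78 with vehicle, 9.001, 7.78 and 7.80 with LCN2 from day 7, and 9.45, 7.84 and 8.05 from day 0. It had the smallest p of all members for the title number, at 1.30 ± 0.10 (limma, adjusted p = 0.00011). Ccrl2, a receptor that presents chemerin, was higher by 1.30 ± 0.21 and Saa3, an acute-phase serum amyloid, by 0.92 ± 0.23 (limma, adjusted p = 0.00391 and 0.0267). For Saa3 the array of LCN2 from day 0 numbered 1, at 6.80, was the high one, and the other 8 lay between 4.71 and 5.80. Cd40, the receptor through which T cells activate macrophages, was lower by -0.46 ± 0.10 (limma, adjusted p = 0.015), at 7.77 to 7.99 against 8.25 to 8.48. Icam1, an adhesion molecule, Ptx3, a pentraxin, and Clec4e (Mincle, a receptor for mycobacterial glycolipids) did not pass, at 0.11, 0.32 and -0.26.

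**Figure D2:**
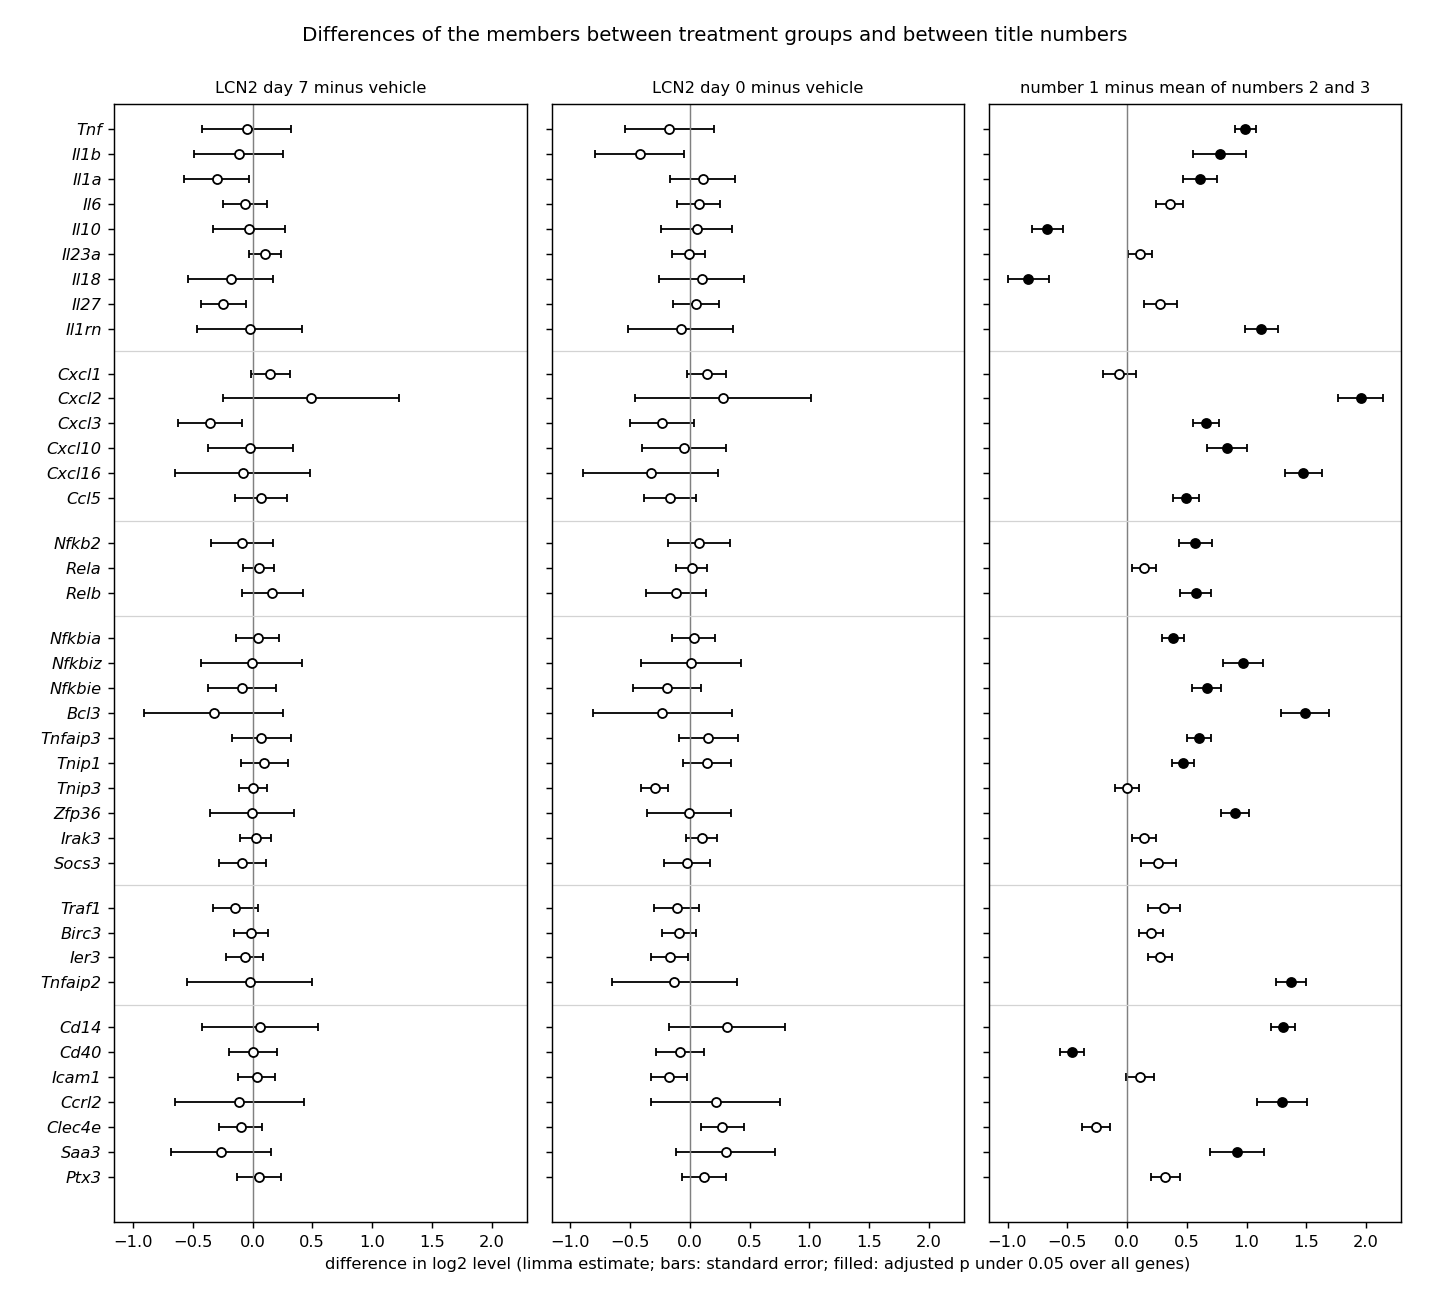
Difference of each member (log2 scale, limma estimate with its standard error) for LCN2 from day 7 minus vehicle, LCN2 from day 0 minus vehicle, and number 1 minus the mean of numbers 2 and 3; filled points passed an adjusted p of 0.05 over all genes. No point is filled in the LCN2 comparisons, and 25 of 39 are filled for the title number, 3 of them below 0.

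Read as a set, the 25 of 39 members (22 higher, 3 lower) stand beside 13.9% of all 19505 genes that passed between number 1 and numbers 2 and 3, of which 5.1% were higher and 8.78% lower. With dim genes left out, 18 of 26 members passed, beside 33.2% of all genes. The median of the 39 members was 0.50, that of all genes -0.002. The median was similar within each treatment group, at 0.51 with vehicle, 0.41 with LCN2 from day 7 and 0.45 with LCN2 from day 0, and 28 members lay above 0 in all 3 groups (22% of all genes did) and 4 below (26%). On 22 members the 3 arrays numbered 1 lay above all 6 others (7.99% of all genes) and on 3 below them (12.8%). These 22 are not quite the 22 that passed. Il1b and Il1a passed with overlapping values, and Il6 and Birc3 did not overlap but did not pass. Leaving out the array of vehicle numbered 1 reduced the 25 to 14, and leaving out that of LCN2 from day 0 numbered 1 reduced it to 16, where fewer genes passed on the whole array as well (1121 and 1213 in place of 2708). Between numbers 2 and 3 limma passed 0 members, with 0 at an unadjusted p under 0.05, and 0% of all genes, with 673 (3.45%) at an unadjusted p under 0.05.

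Other genes moved with the title number too. Of 9 neutrophil genes, 7 were lower on the arrays numbered 1 (S100a8, S100a9, Elane, Mpo, Ltf, Ngp and Cxcr2) and 0 higher, beside 8.78% and 5.1% of all genes. Their median was -1.19, and the list mean per array was 6.18 to 6.79 there against 7.48 to 7.80. In bulk RNA fewer cells of a type and less RNA per cell cannot be told apart. Of the genes of IL-4 activation, Chil3 (1.51 ± 0.097) and Retnla (0.70 ± 0.12) were higher and Arg1 (-0.64 ± 0.13) and Ccl22 (-0.60 ± 0.13) lower. Of the macrophage markers Mertk was higher (0.77) and Fcgr1 lower (-0.98), and of the T and NK cell genes Ncr1 was higher (0.59). In the lists of dendritic, B, mast, erythroid and stromal cells 0 passed, with 2 dendritic genes and 0 of the others at an unadjusted p under 0.05. The part of these shifts in the members' differences was not tested.

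**Figure D3:**
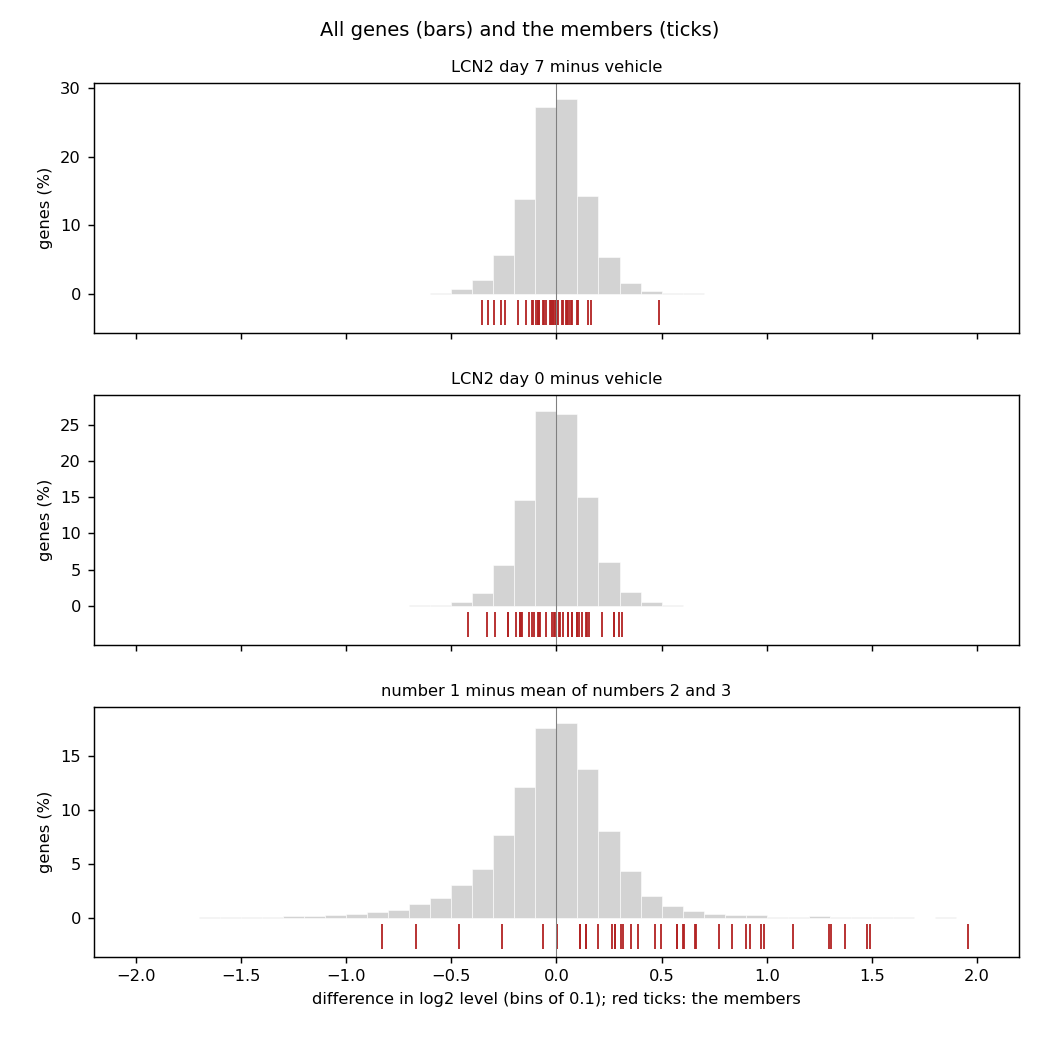
Distribution over all 19505 genes of the difference in log2 level (bars, share of genes in bins of 0.1) and the 39 members (red ticks) for both LCN2 comparisons with vehicle and for the title number. The members' ticks centre on 0 for LCN2, with medians of -0.025 and -0.007, and extend to 1.95 for the title number, with a median of 0.50.

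Genes around the members did not all shift the same way. Of 24 other genes that NF-kB induces, 9 were higher on the arrays numbered 1 (5.1% of all genes) and 5 lower (8.78%), with a median of 0.24. Ptgs2, the inducible cyclooxygenase, was higher by 1.01 ± 0.10 (limma, adjusted p = 0.000425) and Bcl2a1d, a survival gene, by 1.43 ± 0.15 (0.000583), as were Acod1, Gpr84, Cd83, Gadd45b, Junb, Csf1 and Sqstm1. Lcn2, an NF-kB target whose protein was the treatment, was lower by -1.78 ± 0.17 (limma, adjusted p = 0.000291), with -2.19 within vehicle, -1.27 within LCN2 from day 7 and -1.87 within LCN2 from day 0. Ccl3, Ccl4, Il15 and Bcl2l1 were lower as well. Lcn2 is also a gene of neutrophil granules. As given above, 7 of 9 neutrophil genes were lower on the same arrays, and their part in the Lcn2 difference was not tested.

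A further list held 24 genes, most of them kinases, receptors and adaptors upstream of NF-kB. It also held the subunit Rel and the IkB family genes Nfkbib and Nfkbid. Of the 24, 2 were higher (Nfkbid and Map3k14) and 4 lower, beside 5.1% and 8.78% of all genes, with a median of -0.036. All 24 lay above the median of probe-set means, and with dim genes left out 33.2% of all genes passed. The 4 lower genes were Il1rap, the shared chain of IL-1 family receptors (-0.94 ± 0.098), Ikbkg, the regulatory subunit NEMO of the IkB kinase (-0.79 ± 0.094), Rnf31 and Tab3 (-0.40 each). The genes named beyond the 3 with the smallest p of each list were chosen after their values were seen.

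LCN2 given on day 7, at the end of differentiation, was compared with vehicle. The members' differences had a median of -0.025 (0.001 for all genes) and ran from -0.35 to 0.49, with 15 of 39 above 0. Leaving out 1 array at a time, which leaves the title numbers unequal between the groups, moved this median between -0.15 and 0.13. Without the vehicle array numbered 1 the difference of 19 members changed sign. Limma passed 0 members and 0% of all genes, with 0 members and 418 genes (2.14%) at an unadjusted p under 0.05. Standard errors of single members ran from 0.12 to 0.74. The members' median was -0.11, 0.020 and 0.022 within numbers 1, 2 and 3.

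The 4 members with the smallest p were Cxcl3, Il27, Il1a and Cxcl1. Cxcl3 was at 7.45, 6.84 and 6.96 with vehicle and 7.08, 6.64 and 6.47 with LCN2 from day 7, lower in each same-number pair, while the groups overlapped. Its difference was -0.35 ± 0.27 (SE, n = 3 per group; limma, adjusted p = 1). Il27 was at 5.06, 4.69 and 4.42 with vehicle and 4.47, 4.68 and 4.29 with LCN2 from day 7, a difference of -0.25 ± 0.19. Il1a, at 4.83, 3.75 and 4.09 against 4.07, 3.88 and 3.82, differed by -0.30 ± 0.27, and Cxcl1, at 5.47, 5.18 and 5.30 against 5.31, 5.83 and 5.25, by 0.15 ± 0.17. No member had groups without overlap (5.94% of all genes did), and 9 differed the same way in all 3 same-number pairs, 3 above 0 and 6 below (11.5% of all genes each way). Cxcl2 was one of the 3, at 0.13, 0.58 and 0.76 within numbers 1, 2 and 3.

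LCN2 given from day 0 was compared with vehicle. The members' median was -0.007 (0.001 for all genes), with 19 of 39 above 0 and values from -0.42 to 0.31. Leaving out 1 array at a time moved it between -0.19 and 0.15. Limma passed 0 members and 0% of all genes, with 1 member and 391 genes (2%) at an unadjusted p under 0.05. Within numbers 1, 2 and 3 the median was -0.034, -0.043 and 0.016.

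The member at an unadjusted p under 0.05 was Tnip3, which encodes ABIN-3, a protein that binds A20. Tnip3 was bright and even: 11.54, 11.55 and 11.50 with vehicle, 11.48, 11.66 and 11.47 with LCN2 from day 7, and 11.29, 11.10 and 11.32 from day 0. The 3 arrays of LCN2 from day 0 lay below the other 6. The difference to vehicle was -0.29 ± 0.12, with a 95% interval from -0.55 to -0.038 and an adjusted p of 1 (limma), and within numbers 1, 2 and 3 it was -0.26, -0.45 and -0.18. Clec4e, the next by p, was at 6.65, 7.07 and 7.07 with vehicle, 6.72, 6.60 and 7.18 with LCN2 from day 7, and 7.07, 7.20 and 7.34 from day 0, a difference of 0.27 ± 0.18, with the highest vehicle value and the lowest of LCN2 from day 0 equal after rounding. These were the 2 members whose values did not overlap between LCN2 from day 0 and vehicle (6.81% of all genes).

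Icam1 was at 9.28, 9.16 and 8.91 with vehicle and 9.02, 8.85 and 8.97 with LCN2 from day 0, a difference of -0.17 ± 0.15. Il1b, whose values are given above, differed by -0.42 ± 0.37, but not within every number: within numbers 1, 2 and 3 the difference was -1.33, 0.019 and 0.060. Cd14 differed by 0.31 ± 0.49, above 0 within each number (0.52, 0.15 and 0.27). The same direction in all 3 pairs was seen for 6 members above 0 and 3 below (12.5% and 12.9% of all genes).

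**Figure D4:**
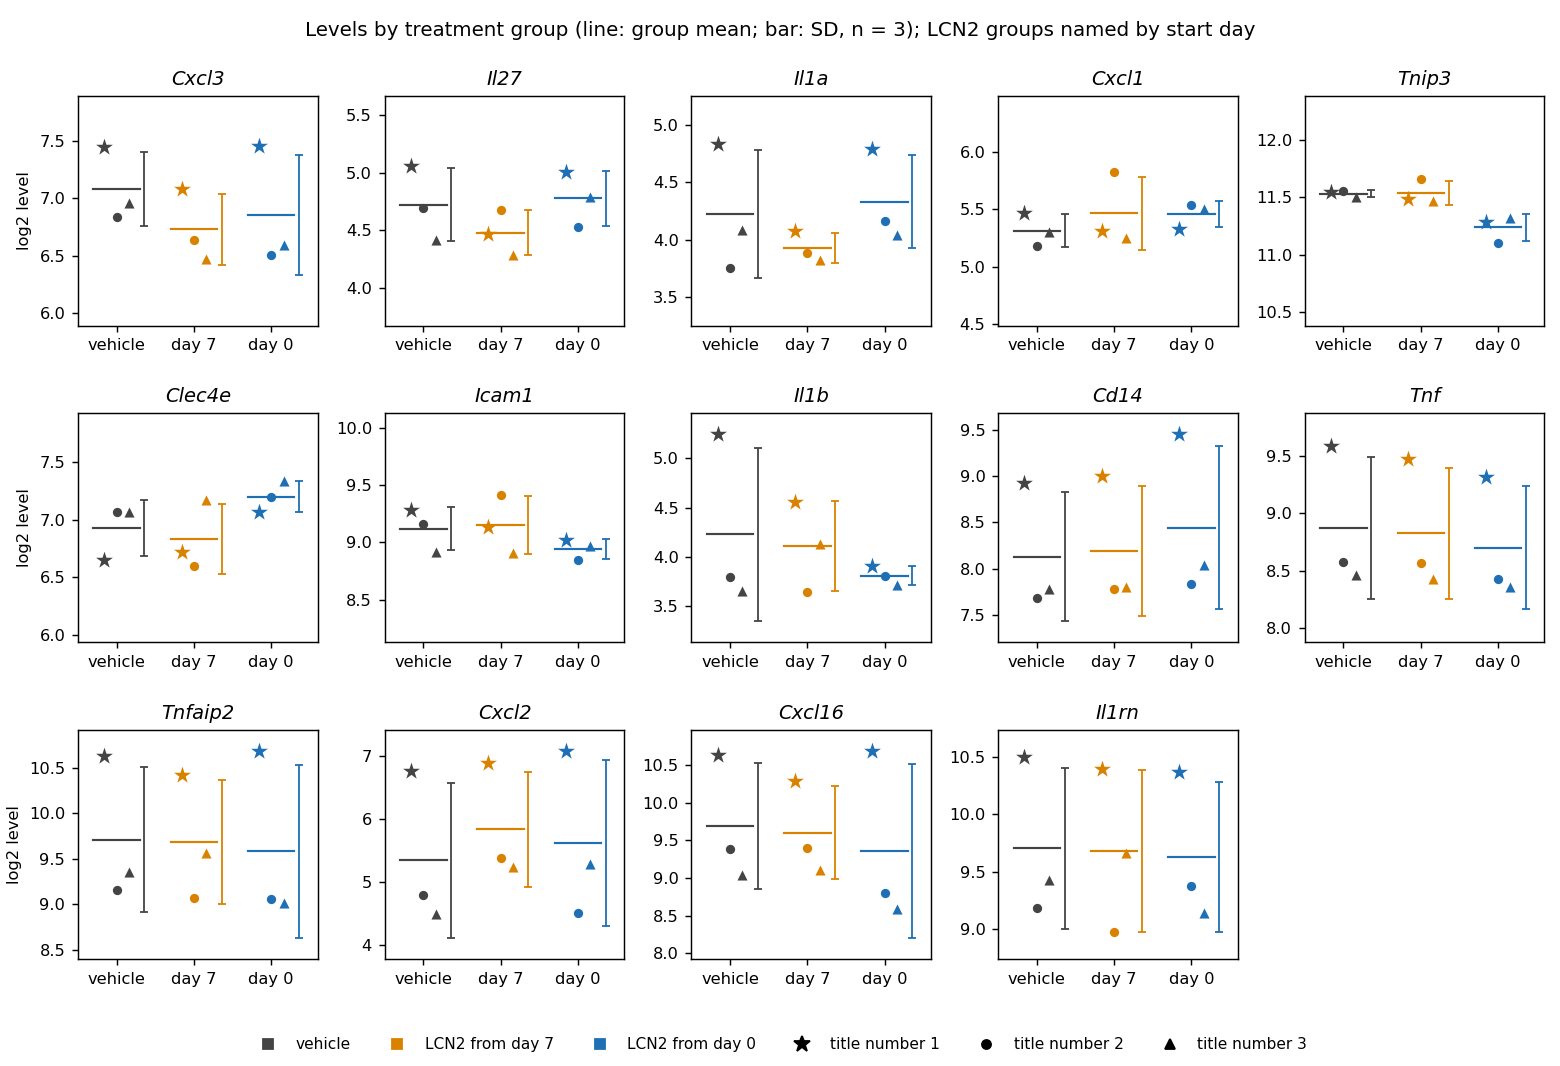
Log2 level of the 14 members chosen by smallest p, by treatment group, with the title number as symbol, the group mean as a line and the SD (n = 3) as a bar. For Tnip3 the day 0 arrays lie at 11.10 to 11.32, below the other 6 at 11.47 to 11.66, and for Cd14, Tnf, Tnfaip2, Cxcl2, Cxcl16 and Il1rn each star lies above the other arrays.

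The LCN2 groups were compared with each other to test whether their effects differ. Limma passed 0 members and 0% of all genes, with 1 member and 561 genes (2.88%) at an unadjusted p under 0.05, and the members' median was -0.005 (-0.001 for all genes), at 0.19, -0.068 and -0.068 within numbers 1, 2 and 3. The member was Tnip3 again, at -0.30 ± 0.12 (95% interval -0.56 to -0.044, adjusted p = 1) and the 1 member whose LCN2 day 0 values all lay below those of LCN2 day 7 (3.18% of all genes). Clec4e followed at 0.37 ± 0.18, Il27 at 0.30 ± 0.19 and Il1a at 0.41 ± 0.27. The comparisons share groups, so these values are not independent of those against vehicle. With both LCN2 groups averaged against vehicle, the members' median was -0.033 and limma passed 0 members and 0% of all genes, with 0 members and 341 genes (1.75%) at an unadjusted p under 0.05.

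Around the members, limma passed 0 of the 24 genes of the upstream list and 0 of 24 other induced genes in each LCN2 comparison. Between LCN2 from day 0 and vehicle 2 upstream genes and 0 induced genes had an unadjusted p under 0.05. These were Il1r1, the signalling receptor of IL-1 (-0.62 ± 0.21), and Tab1, a partner of the kinase TAK1 (-0.36 ± 0.14), both with an adjusted p of 1. They were also the 2 upstream genes at an unadjusted p under 0.05 between the LCN2 groups, at -0.53 and -0.34, and between LCN2 from day 7 and vehicle 0 genes of either list reached it. Lcn2 itself differed from vehicle by 0.40 ± 0.67 in each LCN2 group. Neutrophil genes had a median of 0.40 for LCN2 from day 7 and 0.41 from day 0 against vehicle, with 0 of 9 past the threshold.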

How the data were processed

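The deposited table holds log2 expression levels of 22203 probe sets on 9 arrays, made by the authors with RMA in the R package oligo, per the submitters' processing notes, which give no versions. RMA corrects background, makes the arrays' distributions alike and summarises probes on the log2 scale, so a shift shared by all genes of an array would not be seen. No scanner values were used. RNA had been amplified from small inputs, per the labels.

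Probe sets with 1 symbol (19572) were reduced to 19505 genes by the highest mean. Limma 3.58.1 in R 4.3.3 was fitted on all genes and arrays, with 1 mean per group, or with group and title number for the title numbers, without a variance trend. P-values were adjusted by Benjamini-Hochberg over all genes, with a threshold of 0.05. The fits were also run on simulated data with known changes, and the outcome is not given here. Array data carry no depth, and the number of arrays limits the precision. Differences are the group named before minus the other, ± the standard error. The members, lists and rules were chosen with earlier results of these data known. Values on all arrays are given for the 4 members with the smallest p per comparison of 2 treatment groups, the 6 for the title number, and some further members chosen after their values were seen. Alternatives were a filter on dim genes, averaged probe sets, a variance trend, array centring, the title number as a block, only the groups compared, and leaving out each array.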

Additional observations from a re-analysis of the deposited data

How the results depend on the processing

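No LCN2 comparison passed a member under any alternative run, and those 4 counts stayed at 0 throughout. For the title number, the count of 25 ran from 14 (without vehicle replicate 1) to 26 when 1 array was left out, with 16 without LCN2 day 0 replicate 1, and was 18 of 26 members with dim genes left out (33.2% of all genes then passed) and 27 with a variance trend (18.1%). Cd14, Tnf, Tnfaip2, Cxcl2, Cxcl16 and Il1rn passed in every alternative in which they were tested, with adjusted p up to 0.0135; Cxcl2, being dim, was not tested after the dim filter.

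Some LCN2 differences given in the text turned sign when 1 array was left out. That step also leaves the title numbers unequal between the groups, in a fit without the number. Tnf is among them, though within each number its difference to vehicle was below 0 in both LCN2 groups. Against vehicle, LCN2 from day 7 ran from -0.54 to 0.006298 for Il1a, -0.033 to 0.26 for Cxcl1, -0.37 to 0.31 for Tnf, -0.035 to 1.19 for Cxcl2 and -0.33 to 0.83 for Lcn2. LCN2 from day 0 ran from -0.70 to 0.087 for Il1b, -0.48 to 0.18 for Tnf, -0.19 to 0.71 for Cd14 and -0.33 to 1.03 for Lcn2. Il1b was at 0.039 without the 3 arrays numbered 1, an alternative added after seeing the data. How far the unequal numbers account for the changes of sign with 1 array left out was not tested.

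The arrays numbered 1 deviated together (r from 0.60 to 0.68 across all genes). Over all numbers, r was over 0.1 in 8 of 9 same-number pairs (0.036 to 0.68, and 0.16 to 0.82 with dim genes left out). Numbers 2 and 3 also correlated across groups (0.089 to 0.51), and 5 of 9 arrays correlated best with their own number. Each deviation was taken from the mean of a group's 3 arrays, so a shift of number 1 moves numbers 2 and 3 the opposite way. A positive r among the arrays numbered 2 and 3 is therefore built in, in part, and does not show a likeness of its own. The main fits did not treat the samples as paired, so the shift of the arrays numbered 1 is part of their LCN2 standard errors. With the title number as a replicate block, 0 members passed in each LCN2 comparison, with 2 (day 7 minus vehicle), 2 (day 0 minus vehicle) and 3 (day 0 minus day 7) at an unadjusted p under 0.05 and a lowest adjusted p of 0.933. Of all 19505 genes, 735, 806 and 1021 were at an unadjusted p under 0.05 with the block, against 418, 391 and 561 without it. The standard error of Cxcl3 (day 7 minus vehicle) was 0.13 with the block and 0.27 without. No detection calls were used, so a level of the 13 dim members cannot be told from background.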
